A study of Mus musculus with 4 samples.

Results

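Cytochromes P450 and the enzymes that conjugate drugs, hormones and bile acids were examined in mouse intestinal organoids, epithelial cultures grown in 3 dimensions in Matrigel. All genes of the array's annotation whose symbols begin with Cyp1 to Cyp4 and a letter, Ugt1 or Ugt2 followed by a or b, Gst of the a, k, m, o, p or t class, Mgst or Sult were taken, without regard to their values. This gave 99 of the 18193 genes measured: 56 cytochromes, with 3 of family 1, 35 of family 2, 5 of family 3 and 13 of family 4, and 8 UDP-glucuronosyltransferases, 19 cytosolic glutathione transferases, 3 microsomal glutathione transferases and 13 sulfotransferases. Family 4 here counts Cyp4f41-ps, a pseudogene by its symbol, which read at most 14.2. Tacc3 wt/wt cultures (control organoid in the labels) and Tacc3 fl/fl cultures (Tacc3 organoid) were each collected at day 4 and at day 6, with a single Affymetrix array per group and 4 arrays in all. Every culture received 4OHT (4-hydroxytamoxifen) for 24 hours, which the study used to recombine floxed alleles of Apc, the brake on Wnt signalling, and of Tacc3, a mitotic spindle gene. Day 4 is described as normal and day 6 as Apc-deficient for the samples of both genotypes, while the design text speaks of recombination before both days, so the Apc state of each array is not settled. The sources used here do not give the recombinase driver, the strain, the age of the animals or the number of cultures behind an array.

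Cytochromes P450 are haem enzymes of the endoplasmic reticulum that insert oxygen into lipophilic compounds, and family members differ in their substrates: family 1 acts on polycyclic aromatics, much of families 2 and 3 on drugs and steroids, and family 4 on fatty acids. Conjugating enzymes then attach glucuronic acid, glutathione or sulfate, which makes the products soluble and ready for export. In the intestine these enzymes are known from the absorptive enterocytes of the villus, which meet dietary compounds before the liver does, and many of their genes are targets of nuclear receptors, of the aryl hydrocarbon receptor or of the oxidant sensor NRF2.

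Since each group held 1 array, no value has a replicate error and no p-value was computed; differences are on the log2(intensity + 16) scale and were called by size, at 1 or more in either direction (2-fold on this scale; for dim genes it is smaller than the ratio of intensities). Where values or differences come as a pair, the first is from wt/wt and the second from fl/fl cultures unless said otherwise, and genotype differences are given for day 4 and then day 6. Array medians lay between 15.4 and 17.7 and 95th percentiles between 303.0 and 439.0. Tacc3 read 184 and 167 in wt/wt and 59.8 and 49.7 in fl/fl cultures at days 4 and 6. The intensity ratio of 5' to 3' control probe sets, which is low where labelled RNA is short, was 0.0610 and 0.0627 for Actb at day 4 in wt/wt and fl/fl cultures and 0.180 and 0.261 at day 6, and for Gapdh 0.208 and 0.142 at day 4 and 0.411 and 0.524 at day 6. The epithelial markers Vil1, a brush border protein, and Cdx2, an intestinal identity factor, read at least 623 and 439 on every array, whereas 7 of 13 immune markers, among them Ptprc, and 7 of 10 endothelial markers stayed below 16 on all 4 arrays.

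Many members were dim. Of the 99, 46 had a mean at or above the median of all probe sets (an intensity of 16.9), and 45 lay below 16 on every array, where the scale does not allow a 2-fold difference. The dim members were 2 of the 3 family 1 cytochromes, 19 of 35 in family 2, 2 of 5 in family 3, 7 of 13 in family 4, 3 of 8 glucuronosyltransferases, 4 of 19 cytosolic glutathione transferases, 8 of 13 sulfotransferases and none of the 3 microsomal glutathione transferases. Cyp1a1 and Cyp1b1, the cytochromes best known as targets of the aryl hydrocarbon receptor, read at most 9.75 and 11.4, and Cyp1a2 read at most 19.0. Over all 99 members the median day difference was -0.02 for wt/wt and 0.03 for fl/fl cultures, beside -0.08 and -0.05 over all genes. The 45 members below 16, whose differences the scale holds small, weigh on this median. It therefore cannot show whether the brighter members were displaced.

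The comparison of day 6 with day 4 addresses what differed between the days in each genotype. At day 6, 22 of 99 members were 2-fold higher in wt/wt cultures (22.2%, against 11.5% of all genes) and 22 in fl/fl cultures (22.2%, against 7.69%). In both genotypes at once this held for 19 members (19.2%, against 5.87%). None was 2-fold lower in wt/wt cultures (1.86% of all genes were), 1, Cyp2e1, was in fl/fl cultures (1.82%), and none was in both (0.846%). The day differences of the genotypes share no array. The 19 members were Cyp2b10, Cyp2c29, Cyp2c55, Cyp2c65, Cyp2d26, Cyp2j6, Cyp3a11, Cyp3a13, Cyp3a25, Cyp4b1, Cyp4f14, Cyp4v3, Gsta3, Gstt3, Mgst1, Mgst3, Sult1d1, Ugt2b34 and Ugt2b35, with median differences of 2.35 for wt/wt and 2.28 for fl/fl cultures. After quantile normalization of the arrays, 6.49% of all genes were 2-fold higher and 6.01% lower at day 6 in wt/wt cultures, and 5.10% and 3.66% in fl/fl cultures, while 18 and 20 members were higher and 0 and 1 lower.

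**Figure D1:**
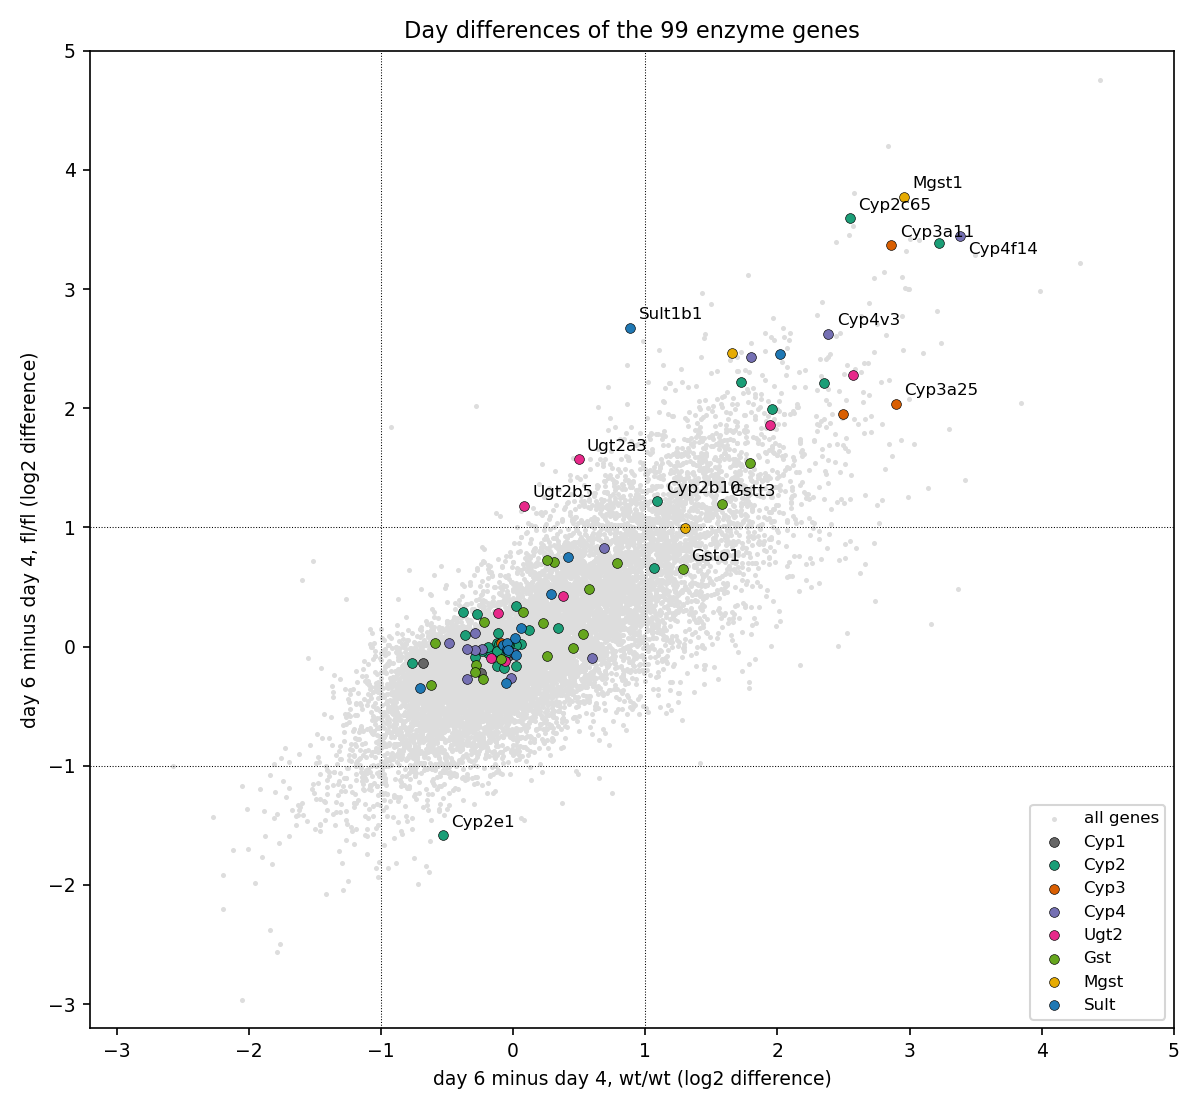
Day 6 minus day 4 on the log2(intensity + 16) scale in wt/wt (x axis) and fl/fl cultures (y axis), with all 18193 genes in grey and the 99 enzyme genes coloured by family; dotted lines mark 2-fold. The 19 members in the upper right corner lie beyond 2-fold in both genotypes, and Cyp2e1 is the member below -1 in fl/fl cultures.

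Markers of enterocytes were higher at day 6 as well, with 16 of 28 measured members 2-fold higher in both genotypes (5.87% of all genes were). Their summed intensities were 3096 and 3648 in wt/wt and fl/fl cultures at day 4 against 12910 and 18244 at day 6. Of intestinal stem cell markers 7 of 18 were 2-fold higher in both genotypes (summed 5990 and 7152 against 16514 and 11195). The same held for 1 of 12 tuft cell markers and for no goblet, enteroendocrine, mesenchymal, immune or endothelial marker. Of 10 Paneth cell markers 1 was 2-fold lower in wt/wt and 6 in fl/fl cultures (1.86% and 1.82% of all genes were), and 0 were higher. Of 15 goblet cell markers 0 and 5 were lower, among them Muc2 (0.06 and -1.44) and Spdef (-0.52 and -1.42). In wt/wt cultures 1 goblet cell marker, Galnt12, was 2-fold higher (1.36 and 0.26). The medians of the goblet list were 0.28 and -0.47. Mesenchymal markers, 6 of 15 of them below 16 on all arrays, summed to 424 and 434 at day 4 and 178 and 179 at day 6, of which the matrix gene Fn1 gave 142 and 209 at day 4 and 22.1 and 12.8 at day 6. Both day 6 arrays also had higher 5' to 3' ratios than both day 4 arrays. The part of these in the enzymes' day difference was not tested, and in such bulk samples fewer cells of a type and less RNA per cell cannot be told apart. Hepatocyte markers, listed because liver holds most of these enzymes, were mainly dim, with 6 of 11 (Alb, Fgb, Cyp7a1, Hpx, F9 and Tdo2) below 16 on all arrays. Their summed intensity, 497 and 549 at day 4 and 2794 and 3347 at day 6, came largely from Cps1, a mitochondrial urea cycle enzyme that intestinal epithelium also makes, with 288 and 279 at day 4 and 2542 and 3124 at day 6.

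Because 19 members were higher at day 6 together, the bases before their start sites were searched for recognition patterns of factors known to govern such genes. RefSeq promoter windows of the GRCm38.p6 build were found for 82 of the 99 members, including all 19, and the 250 bases before the start of the first window listed for each gene were searched on both strands. CAAAGTCCA, a pattern of the enterocyte and liver factor HNF4, was found before 2 of the 19 (Cyp3a11 and Cyp2c65), before 3 of the other 63 members and in 0.381% of all 27025 gene windows. CAAAGGTCA, another such pattern, was found before 1 of the 19 (Cyp3a25), 0 of 63 and in 0.407% of all. TGACNNNGC, the core of the NRF2 pattern, was found before 2 of the 19 (Gsta3 and Mgst1), 2 of 63 and in 10.1% of all. TNGCGTG, the pattern of the aryl hydrocarbon receptor, was found before 1 (Sult1d1), 2 and in 4.16%; GTTAAT, a part of the HNF1 pattern, before 3, 3 and in 6.52%; and TATAAA before 5, 17 and in 13.0%. AGATAA, a pattern of GATA factors, was found before 4, 14 and in 10.3%, and TTTATNG, a pattern of CDX factors, before 2, 7 and in 10.2%. CTTTGNCC, which is not assigned to a factor here, was found before 0, 12 and in 4.83%. It can overlap either CAAAG pattern. The nuclear receptor half-site AGGTCA, which CAAAGGTCA contains, was found before 4 (Cyp2c29, Cyp3a11, Cyp3a25 and Ugt2b35), 15 and in 13.8%, and the half-site AGTTCA before 3 (Cyp3a11, Cyp4v3 and Sult1d1), 5 and in 11.9%. No pattern was shared by most of the 19. These counts describe letters, and a match is not a shown site. The 5 windows with a CAAAGTCCA, CAAAGGTCA or TGACNNNGC match are printed as examples, 5' to 3' on the gene's strand, with the match in capitals (in Mgst1 it lies on the opposite strand).
Cyp3a11, chr5:145879855-145880104, minus strand: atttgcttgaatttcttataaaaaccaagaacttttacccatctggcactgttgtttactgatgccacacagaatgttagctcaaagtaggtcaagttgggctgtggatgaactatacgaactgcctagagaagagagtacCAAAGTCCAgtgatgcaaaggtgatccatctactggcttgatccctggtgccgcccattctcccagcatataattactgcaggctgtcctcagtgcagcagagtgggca
Cyp3a25, chr5:146009619-146009868, minus strand: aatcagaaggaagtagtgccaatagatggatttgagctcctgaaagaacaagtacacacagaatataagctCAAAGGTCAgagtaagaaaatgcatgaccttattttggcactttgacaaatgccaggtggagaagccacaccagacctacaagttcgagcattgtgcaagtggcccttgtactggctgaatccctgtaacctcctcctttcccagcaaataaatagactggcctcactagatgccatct
Cyp2c65, chr19:39060756-39061005, plus strand: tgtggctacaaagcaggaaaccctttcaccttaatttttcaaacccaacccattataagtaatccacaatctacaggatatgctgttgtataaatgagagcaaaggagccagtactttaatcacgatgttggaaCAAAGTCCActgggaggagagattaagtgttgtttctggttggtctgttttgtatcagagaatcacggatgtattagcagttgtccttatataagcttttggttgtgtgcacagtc
Gsta3, chr1:21240335-21240584, plus strand: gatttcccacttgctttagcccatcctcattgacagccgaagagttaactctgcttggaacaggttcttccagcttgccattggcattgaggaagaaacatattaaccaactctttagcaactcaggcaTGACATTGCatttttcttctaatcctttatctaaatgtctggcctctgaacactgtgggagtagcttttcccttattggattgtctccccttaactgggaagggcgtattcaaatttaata
Mgst1, chr6:138140277-138140526, plus strand: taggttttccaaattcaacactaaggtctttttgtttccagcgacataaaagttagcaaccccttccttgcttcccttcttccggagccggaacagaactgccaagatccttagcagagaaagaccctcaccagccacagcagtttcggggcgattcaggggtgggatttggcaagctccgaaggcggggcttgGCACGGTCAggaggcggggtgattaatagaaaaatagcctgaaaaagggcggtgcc
The match lies 109 bases before the start in Cyp3a11, 179 in Cyp3a25, 116 in Cyp2c65, 121 in Gsta3 and 56 in Mgst1, counted from the match's first printed base.

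Members of family 3 oxidise a wide range of drugs, bile acids and steroids. Of its 5 genes, 3 were 2-fold higher at day 6 in both genotypes (60%, against 5.87% of all genes). Cyp3a11, the main drug-oxidising cytochrome of mouse liver and gut, read 18.4 and 30.8 at day 4 in wt/wt and fl/fl cultures and 234 and 467 at day 6, which gave differences of 2.86 and 3.37. Cyp3a25 read 7.96 and 13.4 at day 4 and 163 and 105 at day 6 (2.90 and 2.04). Cyp3a13 read 38.6 and 66.7 at day 4 and 291 and 304 at day 6 (2.49 and 1.95). In all 3 genes both day 6 arrays lay above both day 4 arrays. The other 2 genes, Cyp3a16 and Cyp3a44, read at most 4.31 and 5.31 on any array. In the RefSeq gene order, Cyp3a16, Cyp3a44, Cyp3a11 and Cyp3a25 are neighbours, a word used here for successive members with at most 9 other protein-coding genes between them, so bright and dim members stood within the same cluster, while Cyp3a13 lies apart.

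In family 2, 6 of 35 genes were 2-fold higher at day 6 in both genotypes (17.1%, against 5.87% of all genes). Of these, 3 (Cyp2c55, Cyp2c65 and Cyp2c29) belong to the subfamily that oxidises arachidonic acid and many drugs. Cyp2c55 read 35.2 and 34.7 at day 4 and 461 and 515 at day 6 (differences of 3.22 and 3.39). Cyp2c65 read 18.3 in the wt/wt and 8.47 in the fl/fl cultures at day 4 and 185 and 279 at day 6 (2.55 and 3.59). Cyp2c29 read 91.1 and 83.5 at day 4 and 337 and 448 at day 6 (1.72 and 2.22). Cyp2c65 had only an s_at probe set, a type that can bind several transcripts, and close paralogs of this subfamily can share signal. These 3 genes are the first of a run of 10 neighbouring Cyp2c members. Of the other 7, Cyp2c68 was 2-fold higher in wt/wt cultures (26.6 to 73.1, a difference of 1.06) but not in fl/fl cultures (45.2 to 80.5, 0.66), Cyp2c38 read at most 26.1, and Cyp2c39, Cyp2c37, Cyp2c54, Cyp2c50 and Cyp2c70 stayed below 16.

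The other family 2 genes with higher levels at day 6 belong to separate subfamilies. Cyp2j6 read 70.1 and 77.9 at day 4 and 318 and 357 at day 6 (1.96 and 1.99), and its other probe set differed by 1.48 and 2.03. Cyp2j enzymes are best known as arachidonic acid epoxygenases. Cyp2d26, of the subfamily that oxidises many amine drugs, read 30.3 and 34.5 at day 4 and 220 and 218 at day 6 (2.35 and 2.21), while the other 6 of the 7 neighbouring Cyp2d members read at most 17.5. Cyp2b10, the usual reporter of the nuclear receptor CAR, read 47.1 and 92.1 at day 4 and 118 and 235 at day 6 (1.09 and 1.22). Its probe sets did not agree: the probe set without the s_at suffix read 45.5 and 42.8 at day 4 and 42.4 and 78.1 at day 6 (-0.074 and 0.68).

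Cyp2e1, which oxidises ethanol and other small molecules, was the only member 2-fold lower at day 6 in either genotype. It read 51.1 in the wt/wt and 177 in the fl/fl cultures at day 4 and 30.4 and 48.2 at day 6, so the fl/fl array of day 4 stood above the other 3. The day differences were -0.53 and -1.58. Cyp2s1, an extrahepatic cytochrome, read between 73.7 and 106 on all arrays, with day differences of -0.38 and 0.29.

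Members of family 4 mainly hydroxylate fatty acids and eicosanoids at the end of the chain. Of its 13 genes, 3 were 2-fold higher at day 6 in both genotypes (23.1%, against 5.87% of all genes). Cyp4f14 read 23.5 and 38.5 at day 4 and 395 and 579 at day 6 (3.38 and 3.45). Its neighbours on the chromosome did not share this: Cyp4f16 differed by 0.69 and 0.82, Cyp4f13 by 0.60 and -0.09, and Cyp4f15 and Cyp4f39 stayed below 16. Cyp4v3 read 37.8 and 32.7 at day 4 and 265 and 285 at day 6 (2.39 and 2.63), on an s_at probe set. Its other probe set read 10.5 and 7.88 at day 4 and 36.9 and 64.4 at day 6, just short of 2-fold in wt/wt cultures. Cyp4b1 read 34.0 and 28.0 at day 4 and 158 and 222 at day 6 (1.80 and 2.43). Cyp4a12a and Cyp4a14 of the subfamily known for induction by PPAR alpha in liver stayed below 16, and Cyp4a31 read at most 24.1.

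**Figure D2:**
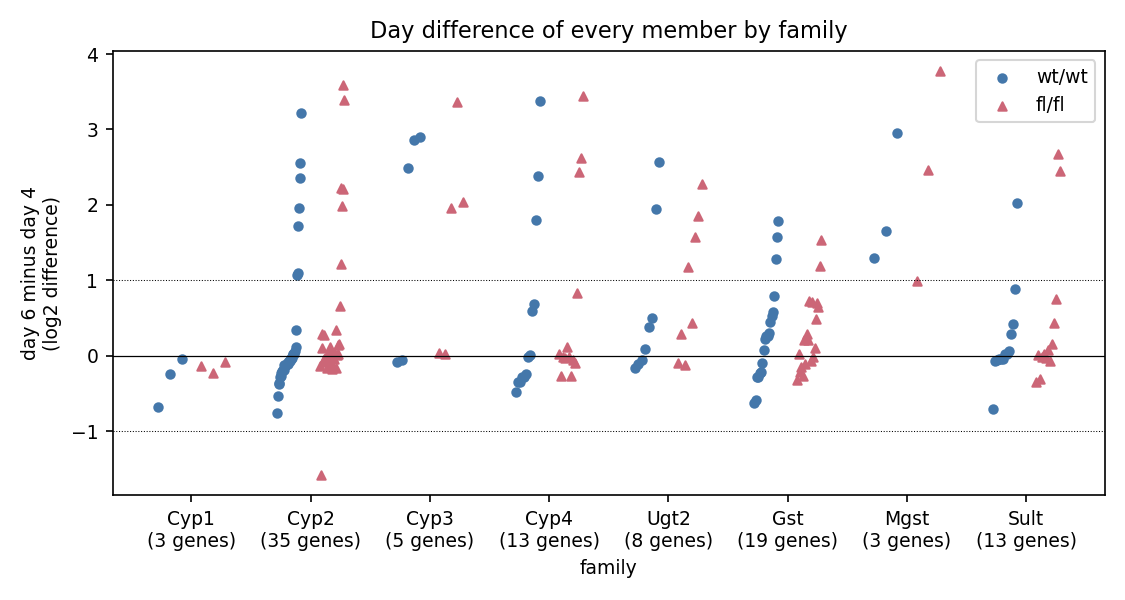
Day 6 minus day 4 (log2 difference, y axis) of every member by family (x axis), with a circle for wt/wt and a triangle for fl/fl cultures; dotted lines mark 2-fold. Of family 3, 3 of 5 genes and of the microsomal glutathione transferases 2 of 3 lie above the upper line in both genotypes (5.87% of all genes do). No family 1 gene does, but 2 of these 3 stayed below 16 on every array, where the scale allows no 2-fold difference.

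The glucuronosyltransferases attach glucuronic acid to steroids, bile acids, bilirubin and drugs. Of the 8, 2 were 2-fold higher at day 6 in both genotypes (25%, against 5.87% of all genes). In fl/fl cultures 4 were (50%, against 7.69%). Ugt2b34 read 95.8 and 124 at day 4 and 650 and 666 at day 6 (2.57 and 2.28), and its probe set without the s_at suffix differed by 2.23 and 3.30. Ugt2b35 read 63.9 and 55.6 at day 4 and 292 and 243 at day 6 (1.95 and 1.86). Another pair was 2-fold higher at day 6 in fl/fl cultures alone: Ugt2a3 read 7.72 and 17.4 in wt/wt and 5.27 and 47.3 in fl/fl cultures at days 4 and 6 (0.50 and 1.57), and Ugt2b5 7.94 and 9.33 in wt/wt and 4.35 and 30.2 in fl/fl cultures (0.08 and 1.18). In both genes the fl/fl array of day 6 was the highest of the 4. Both had a mean below the median of all probe sets, and both were short of 2-fold with 64 added in place of 16. Ugt2b36 differed by 0.37 and 0.43, and Ugt2b1, Ugt2b37 and Ugt2b38 stayed below 16.

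The Ugt1a genes, which share their last exons and differ in the first, had no probe set of their own and so no member. Their 3 joint probe sets, each assigned to 8 Ugt1a genes, were all 2-fold higher at day 6 in both genotypes. The brightest read 161 and 278 at day 4 and 1081 and 1358 at day 6 (2.63 and 2.22), and the others differed by 2.32 and 1.74 and by 3.07 and 2.42. Which Ugt1a gene gave the signal cannot be told from them. A probe set shared by Gsta1, Gsta2 and Gm3776 likewise read 183 and 154 at day 4 and 693 and 954 at day 6 (1.84 and 2.51), while the probe set of Gsta2 alone read at most 11.6.

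The cytosolic glutathione transferases, which join glutathione to electrophiles, were mostly bright, with 15 of 19 above the median of all probe sets. Of these 19 transferases, 2 were 2-fold higher at day 6 in both genotypes (10.5%, against 5.87% of all genes). Gsta3, also a steroid isomerase, read 34.2 and 42.5 at day 4 and 158 and 154 at day 6 (1.79 and 1.54), while its other probe set stayed below 16. Gstt3 read 47.7 and 41.6 at day 4 and 174 and 116 at day 6 (1.58 and 1.20). Gsto1, an omega class enzyme that reduces dehydroascorbate, read 1034 and 885 at day 4 and 2542 and 1395 at day 6 (1.29 and 0.65) on an x_at probe set. Its other probe set read 389 and 408 at day 4 and 964 and 1181 at day 6, so the probe sets differed on fl/fl cultures. Gstp1, the pi class enzyme of many proliferating epithelia, read 2867 and 3875 at day 4 and 3922 and 3841 at day 6 (0.45 and -0.01), a narrow range; its near-identical neighbour Gstp2 could share this signal. Day differences of the mu class ran from 0.79 and 0.70 for Gstm5 to -0.62 and -0.32 for Gstm7. None of its 7 members was 2-fold different, and Gstm6 stayed below 16. Of all genes 11.5% and 7.69% were 2-fold higher and 1.86% and 1.82% lower, so 7 genes are too few to set this class apart. Gstt2 differed by 0.26 and -0.08 and Gstt1 by 0.53 and 0.10.

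All 3 microsomal glutathione transferases, membrane enzymes that also reduce lipid hydroperoxides, were higher at day 6. Mgst1 read 183 and 119 at day 4 and 1535 and 1834 at day 6 (2.96 and 3.78), with another probe set below 16 on all arrays. Mgst3 read 112 and 104 at day 4 and 389 and 644 at day 6 (1.66 and 2.47); its other probe set, at most 19.4, differed by -0.19 and -0.04. Mgst2, which can also make leukotriene C4, read 459 and 454 at day 4 and 1155 and 920 at day 6 (1.30 and 0.99), just short of 2-fold in fl/fl cultures.

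The sulfotransferases transfer sulfate to phenols, amines and steroids. Of the 13, 1 was 2-fold higher at day 6 in both genotypes (7.69%, against 5.87% of all genes). This was Sult1d1, from 23.0 and 19.5 to 142 and 178 (2.02 and 2.45), and its other probe set differed by 1.13 and 1.57. Sult1b1, which acts on thyroid hormones and phenols, read 74.7 and 152 in wt/wt cultures at days 4 and 6 (0.89) and 36.1 and 317 in fl/fl cultures (2.68). The fl/fl arrays thus held both its lowest and its highest value. Sult2b1, the cholesterol sulfotransferase, differed by 0.42 and 0.75, Sult1c2 by 0.29 and 0.44, and Sult5a1 by -0.70 and -0.35. The remaining 8 sulfotransferases, among them Sult1a1 and the oestrogen sulfotransferase Sult1e1, stayed below 16.

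**Figure D3:**
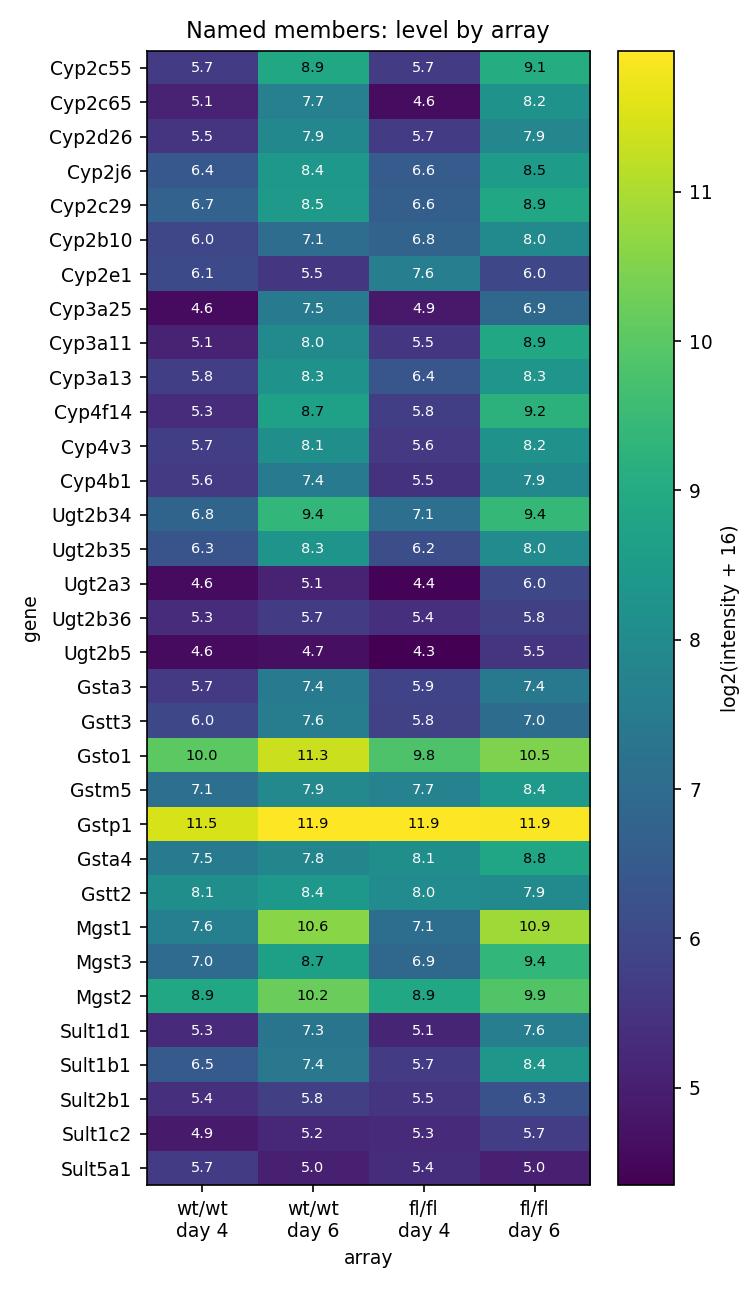
Level of 33 members on each of the 4 arrays (columns) as log2(intensity + 16), shown by colour and printed in each cell, with genes in rows grouped by family. Values can be compared along a row but not between rows, whose probe sets differ; in the Cyp3a and Mgst rows both day 6 columns are higher than both day 4 columns.

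Of the 19 members that were 2-fold higher in both genotypes, 11 rested on a single probe set. Of the 8 with other probe sets, those of 3 (Cyp2j6, Sult1d1 and Ugt2b34) were 2-fold higher in both genotypes too. None of the other probe sets of the remaining 5 (Cyp2b10, Cyp4v3, Gsta3, Mgst1 and Mgst3) was. The 72 members that were not 2-fold different in any of the 4 comparisons ranged from -0.76 to 0.79 between days in wt/wt and from -0.35 to 0.82 in fl/fl cultures, and 45 of them were the members below 16.

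Setting fl/fl against wt/wt cultures addresses what differed with the floxed Tacc3 allele, and for these enzymes it showed few 2-fold differences. At day 4, 1 of 99 members was 2-fold higher in fl/fl cultures (1.01%, against 0.868% of all genes) and 0 lower (0.066%). At day 6, 1 was higher (1.01%, against 0.132%) and 0 lower (0.357%). On both days at once no member was 2-fold higher (0.0055% of all genes were) or lower (0.011%). These comparisons use the same 4 arrays as the day comparisons. These shares are single genes, and the median genotype difference of the 99 members was -0.06 at day 4 and 0.04 at day 6, beside 0.02 and 0.02 over all genes. At day 4 quantile normalization gave 0.632% of all genes higher and 0.214% lower, with 1 member on each side.

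The member at day 4 was Cyp2e1, with 51.1 in wt/wt and 177 in fl/fl cultures, a difference of 1.52; at day 6 it was 0.47. At the same day Serpina1c, an antiprotease gene of the hepatocyte list, read 29.7 in the wt/wt and 123 in the fl/fl cultures (1.60), and 23.8 and 43.2 at day 6 (0.57). Alb read at most 12.6, and no other gene of that list was 2-fold different between genotypes on either day. The hepatocyte list had a median genotype difference of -0.04 at day 4 and 0.05 at day 6. Paneth cell markers had a median of 0.55 at day 4, with 1 of 10 2-fold higher in the fl/fl array and summed intensities of 61342 and 84518. Of the goblet cell markers 3 of 15 were 2-fold higher in the fl/fl array of day 4, with a median of 0.51 and summed intensities of 12982 and 20886. The part of these in the Cyp2e1 difference was not tested.

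At day 6 the member was Gsta4, the alpha class enzyme that clears 4-hydroxynonenal from lipid peroxidation. It read 167 in the wt/wt and 266 in the fl/fl cultures at day 4 and 210 and 444 at day 6, with genotype differences of 0.62 and 1.02, so fl/fl cultures were higher on both days. It was short of 2-fold at day 6 after quantile normalization and with a pseudocount of 64. Gstm5 went the same way on both days, with 0.59 and 0.51, and so did Cyp4f14 with 0.46 and 0.53, both short of 2-fold. Cyp2b10 differed by 0.78 and 0.90 on its brightest probe set, but by -0.063 and 0.69 on the probe set without the s_at suffix. Cyp3a11 differed by 0.44 and 0.95. Gsto1 was lower in fl/fl cultures at day 6 by its brightest probe set (-0.86) but not by the other (0.29). The enterocyte list had a median genotype difference of 0.06 at day 4 and 0.38 at day 6, with 0 and 2 of 28 members 2-fold higher, and its part in these values was not tested.

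**Figure D4:**
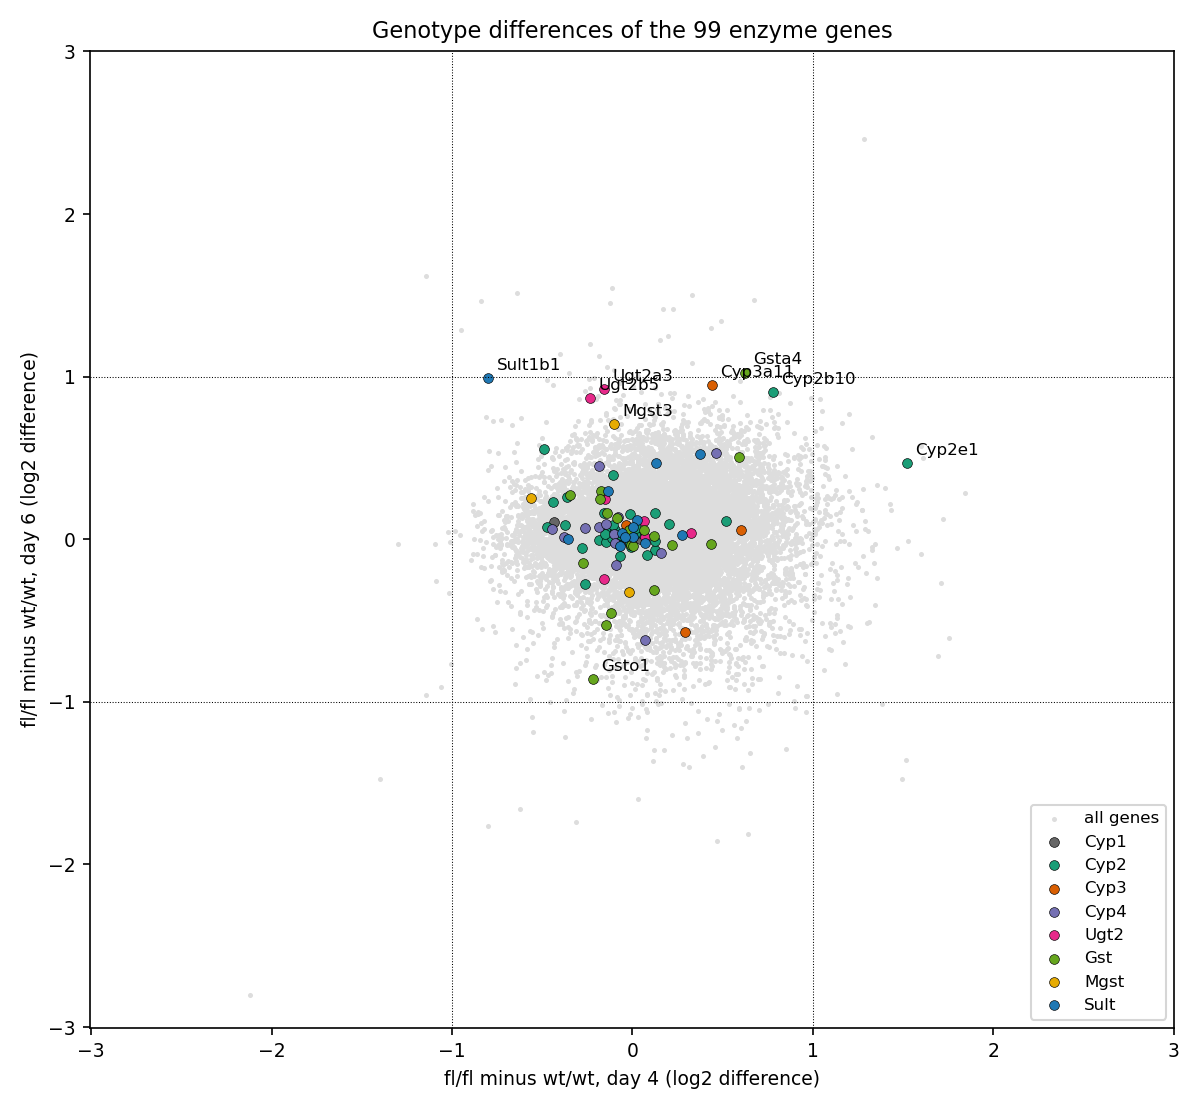
Genotype difference (fl/fl minus wt/wt, log2) at day 4 (x axis) and day 6 (y axis) for all genes in grey and the 99 enzyme genes in colour; dotted lines mark 2-fold. Cyp2e1 alone lies beyond 2-fold at day 4 and Gsta4 at day 6, and Sult1b1 lies to the upper left, lower in fl/fl cultures at day 4 (-0.80) and higher at day 6 (0.99).

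The shift between the days, the fl/fl day difference minus the wt/wt day difference, was at least 1 in 4 of 99 members (4.04%, against 0.418% of all genes) and at most -1 in 1 (1.01%, against 2.57%). The 4 were Sult1b1 (1.79), Ugt2b5 (1.10), Ugt2a3 (1.08) and Cyp2c65 (1.04), and the 1 was Cyp2e1 (-1.05). Sult1b1, Ugt2b5 and Ugt2a3 stand in a run of 11 neighbouring members that begins with Ugt2b34 and ends with Sult1e1. The run also holds Sult1d1, next to Sult1b1, whose shift was 0.43, and Ugt2b35 with -0.09, so not all neighbours in it moved alike. For Ugt2b34 the probe sets differed, with a shift of -0.29 on the s_at probe set used and 1.07 on the other. Ugt2a3 and Ugt2b5 read at most 47.3 and 30.2, where a difference rests on little signal, and their means lay below the median of all probe sets. Without such genes the shift was at least 1 in 2 of 46 members (4.35%, against 0.650% of genes). Cyp2c65 was also dim at day 4 (18.3 and 8.47), on its only probe set, of the s_at type.

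Genes that act with these enzymes were read from lists. Among suppliers of electrons and cofactors, 7 of 18 measured were 2-fold higher at day 6 in both genotypes (5.87% of all genes were) and 0 lower. The electron donor gene Por, also on this list, had no value among the genes measured. Cyb5a, the cytochrome b5 that passes electrons to some cytochromes P450, differed by 1.61 and 1.80. Ugp2 and Ugdh, which make UDP-glucose and oxidise it to the UDP-glucuronic acid that Ugt enzymes use, differed by 1.33 and 1.73 and by 1.27 and 1.61. Papss1, which makes the sulfate donor PAPS, read 74.8 and 62.7 at day 4 and 279 and 374 at day 6 (1.70 and 2.31). Bpnt1, a phosphatase that removes the by-product of sulfation, differed by 2.47 and 2.15, the PAPS transporter Slc35b3 by 2.77 and 1.04, and the anion exchanger Slc26a3 by 1.84 and 1.75.

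Of other oxidising, hydrolysing and transferase enzymes, 13 of 37 were 2-fold higher at day 6 in both genotypes (5.87% of all genes were) and 0 lower. Aldh1a1, a retinal dehydrogenase, read 70.4 and 130 at day 4 and 541 and 743 at day 6 (2.69 and 2.38). The carboxylesterases Ces2e and Ces1f differed by 2.09 and 2.57 and by 1.99 and 1.82, and the monoamine oxidase Maoa by 1.78 and 2.13. Of drug transporters 2 of 16 were 2-fold higher in both genotypes (5.87% of all genes were). These were Abcb1a, the P-glycoprotein gene, from 210 and 365 to 1277 and 1195 (2.51 and 1.67), and Abcg2, another apical efflux pump, from 37.7 and 36.2 to 210 and 281 (2.07 and 2.51). Abcc4 differed by 1.31 and 0.48 and Abcc5 by -0.78 and -0.57.

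Of transcription factors that govern these enzymes or intestinal identity, 1 of 23 was 2-fold higher at day 6 in both genotypes (5.87% of all genes were). This was Nfe2l2, which encodes NRF2, with 131 and 167 at day 4 and 449 and 625 at day 6 (1.66 and 1.81). Keap1, which marks NRF2 for degradation, differed by -0.89 and -0.83. Ahr, the aryl hydrocarbon receptor, differed by 1.36 and 0.88 while its repressor Ahrr and the Cyp1 genes other than Cyp1a2 stayed below 16. Nr1i2, the drug sensor PXR, read 59.7 and 137 in wt/wt cultures (1.01) and 101 and 99.6 in fl/fl cultures (-0.02), and Nr1h4, the bile acid receptor, differed by 1.70 and 0.79. Nr1i3, the receptor CAR, read at most 28.4, and Hnf4a read between 1924 and 2523 on all arrays (0.35 and 0.39). Of glutathione and NRF2 target genes 2 of 17 were 2-fold higher in both genotypes (5.87% of all genes were). Gsr, the glutathione reductase, differed by 1.80 and 1.97 and the carbonyl reductase Cbr1 by 1.14 and 1.16. Of the others, Txnrd1 was 2-fold higher in wt/wt cultures alone (1.22 and 0.62) and Akr1b8 2-fold lower in wt/wt cultures alone (-1.02 and -0.30). Differences below 2-fold were -0.89 and -0.91 for Osgin1, 0.32 and 0.12 for the quinone reductase Nqo1 and 0.61 and 0.68 for Gclm.

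**Figure D5:**
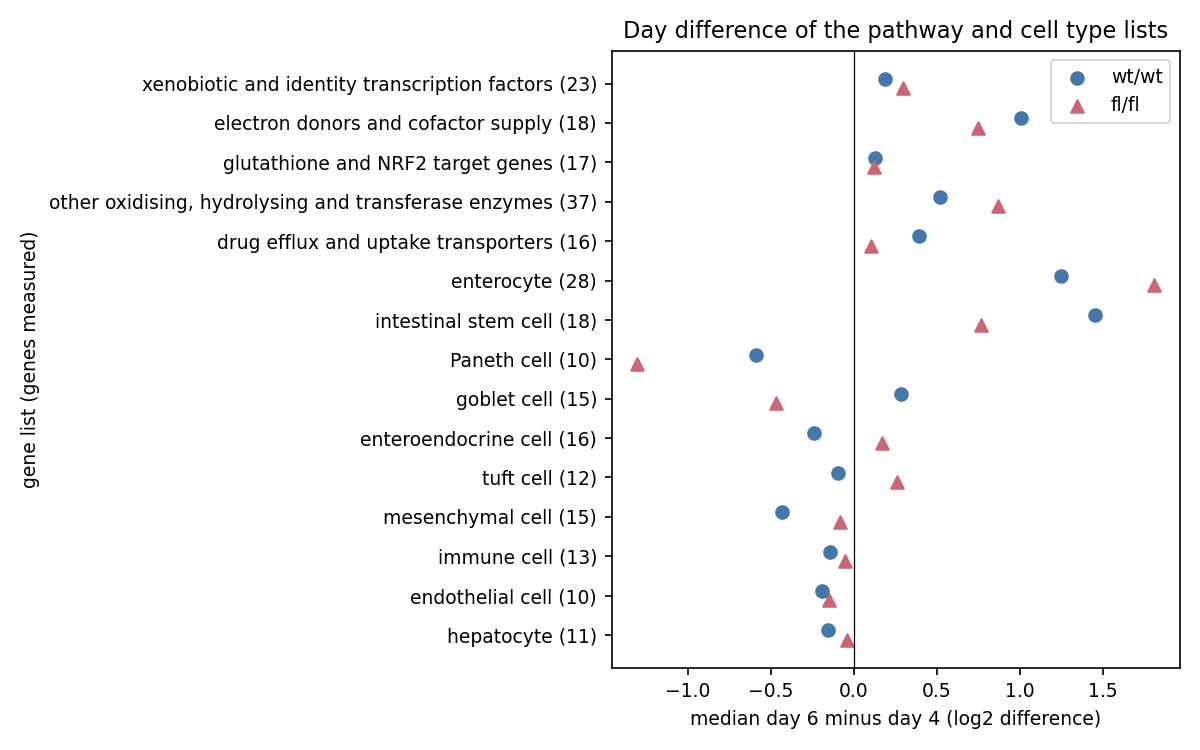
Median day 6 minus day 4 (log2 difference, x axis) of the genes measured in each pathway and cell type list (y axis, number in brackets), with a circle for wt/wt and a triangle for fl/fl cultures. The enterocyte list has medians of 1.25 and 1.81, while the Paneth list lies at -0.59 and -1.31.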

How the data were processed

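Total RNA from mouse intestinal organoids was labelled from 100 ng with a 3' in vitro transcription kit, per the labels' protocols, and hybridised to 4 Affymetrix arrays. The authors' deposited values are 1 linear intensity per probe set for 45101 probe sets; the sources used here do not give the summarisation, background correction or normalization, and the arrays do not share 1 distribution. The deposited intensities were transformed to log2(intensity + 16) without further scaling (Python 3.11.15, pandas 2.3.3). The platform table gave 1 symbol for 34958 probe sets, several for 932 and none for 9211. Symbols were updated through a RefSeq table of GRCm38.p6, and of several probe sets for a gene the one with the highest mean over the arrays was used. No filter on low values was used for counts. The calculation was tested on simulated data. With 1 array per group, precision is limited by the number of arrays, and differences were called by size.

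The members, gene lists and settings were chosen with earlier results of these data known. Members named are those 2-fold different in the same direction between days in both genotypes, those 2-fold different between genotypes on either day, those whose day differences had opposite signs and were 2-fold in either genotype, and the 5 brightest of each family. Of each pathway list, up to 4 genes with the largest mean day difference of 1 sign were named, besides Ahr, Nr1i2, Nr1i3, Hnf4a and Nfe2l2. Por was to be named in every case too but had no value. Other names were added after their values were seen. The promoter patterns named are 11 of 18 searched, and were picked after the matches were seen. Alternatives were quantile normalization, centring each array, pseudocounts 4 and 64, the mean of probe sets, leaving out x_at and s_at probe sets, and a filter at the median.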

Additional observations from a re-analysis of the deposited data

Results flagged for a closer look

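Sult1b1 differed between the genotypes in opposite directions on the 2 days. It was lower in fl/fl cultures at day 4 (74.7 in wt/wt and 36.1 in fl/fl cultures, a difference of -0.80) and higher at day 6 (152 and 317, a difference of 0.99), so that the genotype difference at day 6 exceeded that at day 4 by 1.79 on the log2 scale. Each value is a single array, and the difference between the days was not tested. Sult1b1 was the only member whose genotype differences had opposite signs and were at least 1.5-fold on both days.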

How the results depend on the processing

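The counts of members 2-fold higher at day 6 stayed within 1.5 times the main count under every alternative tried, at 18 to 22 in wt/wt and 18 to 23 in fl/fl cultures, and the count higher in both genotypes lay between 17 and 20. Of the 19 members, 17 were kept after quantile normalization, 17 with a pseudocount of 64, 16 with the mean of probe sets and 16 without x_at and s_at probe sets. Cyp2b10 was lost under each of these 4, and its wt/wt day difference was -0.074 without x_at and s_at probe sets. Cyp2c65 has no other probe set and dropped out there. The count lower at day 6 in wt/wt cultures was 2 with a pseudocount of 4 (Cyp1a2 and Cyp2d13). The count higher in fl/fl cultures at day 6, 1 in the main setting, was 0 after quantile normalization and with a pseudocount of 64, 2 after centring each array and 4 with a pseudocount of 4. At day 4 the count lower in fl/fl cultures was 1 after quantile normalization (Sult1b1). Why these calls moved was not tested beyond the construction of each setting. No paired analysis was possible because each group held 1 array and the labels give no replicate numbers. Signal limits the 45 members below 16, for which no 2-fold difference could be seen.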
